A study of Mus musculus with 8 samples.

Results

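Homeostatic microglia genes are 9 genes that resting microglia express and that most other brain cells do not: P2ry12, P2ry13, Gpr34, Cx3cr1, Csf1r, Tmem119, Siglech, Fcrls and Sall1. They were taken by symbol from a table of 55780 genes, each symbol matched 1 row, and all 9 were high enough to be tested. RNA sequencing had been run on 8 libraries from C57BL/6 mouse brain, 4 named Ep1 and 4 named Ctrl. Per the labels, Ep1 1 and Ep1 2 received PDT at 10 J/cm2, Ep1 3 and Ep1 4 received it at 20 J/cm2, and Ctrl 1 to Ctrl 4 were untreated. The title of the series has MNP treatment and its design text a magnetic force, which differ from the PDT of the labels. Which treatment was applied cannot be settled from them. They give no age, sex or interval after treatment. Whether each library is its own animal is not labelled, and p-values then cover only library-to-library spread, possibly technical.

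Microglia are the resident macrophages of the brain parenchyma. In the undisturbed brain they survey the tissue with moving processes, depend on signalling through the CSF1 receptor and on TGF-beta, and hold a set of receptors and surface proteins that blood-derived macrophages mostly lack. After injury or inflammation many of these genes are known to fall while genes of cytokines, lipid handling and phagocytosis rise, and microglia can also be lost or replaced. In a bulk sample fewer microglia and less RNA per microglial cell cannot be told apart.

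The labels name brain microvessel endothelial cells as well as brain tissue. Markers of many brain cell types were present: 10 neuron markers summed to 1525 to 1670 FPKM per library in Ep1 and 1546 to 1713 in Ctrl, and 10 endothelial markers to 80.6 to 107 FPKM in Ep1 and 86.2 to 94.1 in Ctrl. Neuron markers were thus abundant, although the cell type label names endothelial cells. Sums over different marker genes do not measure how much RNA each cell type gave. FPKM, the deposited unit, is a fragment count scaled by gene length and by a scaling total of the library, so levels of different genes can be compared. Here that scaling total was not the plain fragment total. Between 15038147 and 17772972 fragments lay behind each library. One library, Ctrl 3, was unlike the rest of its group: 5.08% of its fragments were mitochondrial, and 3.24% to 3.50% in the other controls. The gene CT010467.1 held 1.46% of the fragments in Ctrl 3, and 0.123% to 0.156% in the other controls. Values without Ctrl 3 are given where they matter. A gene was tested where the Ep1 or the Ctrl mean reached 1 FPKM. Of 14710 tested genes 1566 were lower in Ep1, 10.6%, and 2275 were higher, 15.5%, at a limma adjusted p of at most 0.05. The lower genes numbered 860 without Ep1 4, 949 without Ep1 3 and 1007 without Ep1 1. When libraries were set to 1 sum without mitochondrial genes and CT010467.1, 2045 were lower and 1966 higher.

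Of the 9 homeostatic genes 8 fell in Ep1, none rose, and Fcrls did not pass. For all tested genes the share that fell was 10.6%. The members were chosen with earlier results of these data known, so the shares in this paragraph are descriptions, not tests of enrichment. In each of the 8 genes that fell every Ep1 library lay below every Ctrl library, which held for 14.1% of tested genes. No member had every Ep1 library above every Ctrl library, as 17.7% of tested genes had. The 9 values together summed to 39.3, 40.9, 38.2 and 35.8 FPKM in Ep1 1 to 4, against 65.1, 64.9, 72.1 and 70.3 in Ctrl 1 to 4. The 9 genes had a median log2 change of -0.55 on the log2(FPKM + 1) scale, and all tested genes had a median of 0.01.

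**Figure D1:**
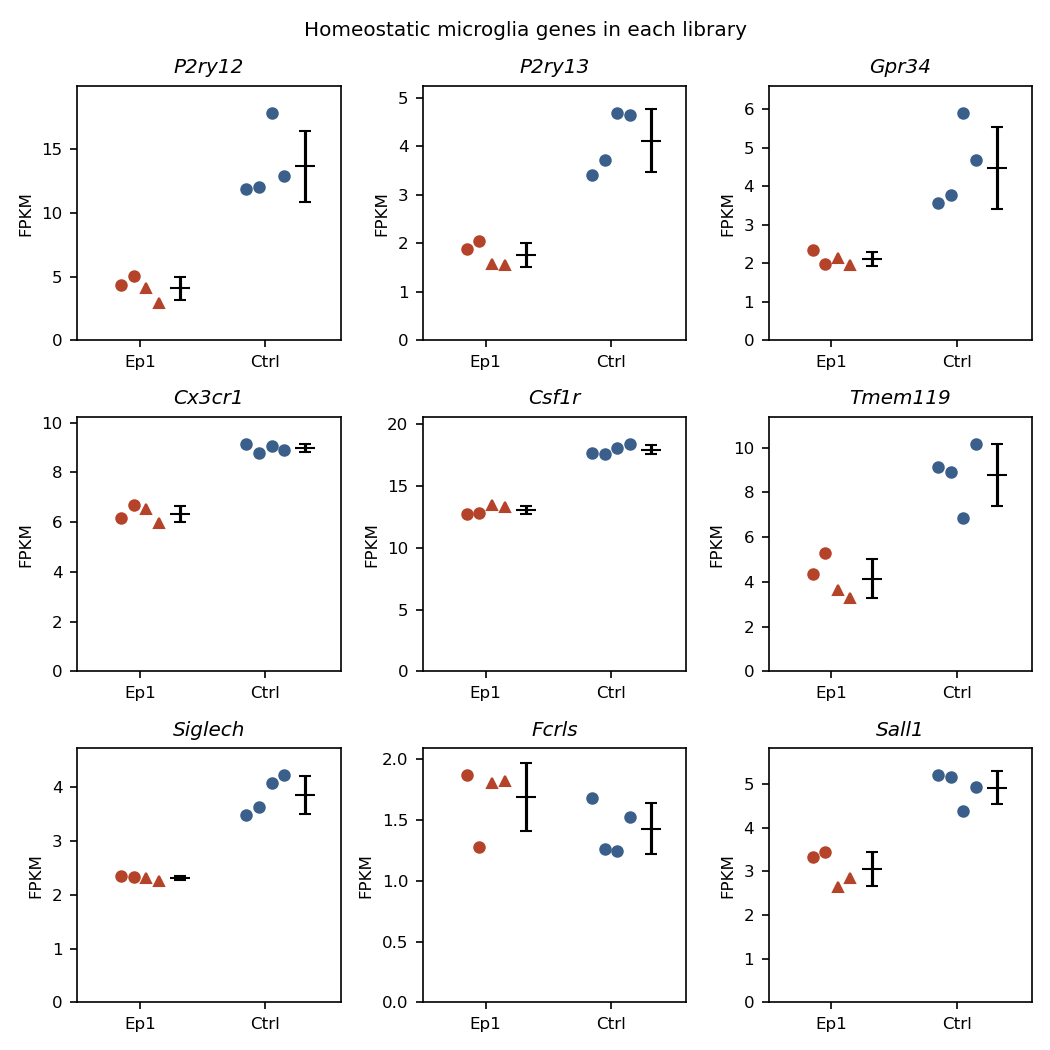
FPKM of each homeostatic microglia gene in each library. Points are libraries in number order (for Ep1, circles 10 J/cm2 and triangles 20 J/cm2), and bars show the mean ± SD of 4 libraries. The Ep1 and Ctrl points are separate in 8 panels and overlap for Fcrls.

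The first group are G protein-coupled receptors for nucleotides and lipids. P2ry12 encodes an ADP receptor through which microglial processes are drawn to sites of damage. It stood at 4.33, 5.07, 4.13 and 2.91 FPKM in Ep1 1 to 4, against 11.9, 12.1, 17.8 and 12.9 FPKM in Ctrl 1 to 4. The groups were far apart, and Ctrl 3 was the highest of all 8 libraries. P2ry12 averaged 4.11 ± 0.897 FPKM in Ep1 and 13.7 ± 2.81 in Ctrl (SD, n = 4 each), which is 30.1% of the Ctrl level, with a log2 change of -1.52 ± 0.16 (SE, limma adjusted p = 0.000511). Without Ctrl 3 the log2 change was -1.40. Only 36 of 14710 tested genes, 0.245%, passed with a log2 change of -1 or lower, P2ry12 among them. Which members pass that limit depends on the pseudocount: with 0.1 in place of 1 the log2 changes of P2ry13, Gpr34 and Tmem119 were also below it, at -1.17, -1.03 and -1.07, and with voom at -1.20, -1.04 and -1.08. The share of all tested genes past that limit was counted only with the pseudocount of 1, so it does not apply to these other settings. Between 110 and 221 fragments were behind the values of P2ry12 in Ep1 and between 524 and 718 in Ctrl.

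P2ry13 encodes a second ADP receptor, whose gene lies beside that of P2ry12. Its values were 1.89, 2.06, 1.57 and 1.54 FPKM in Ep1 1 to 4, against 3.40, 3.71, 4.68 and 4.65 in Ctrl 1 to 4. The 2 groups stood apart, and both libraries at 20 J/cm2 lay below both at 10 J/cm2. The mean in Ep1 was 43.0% of that in Ctrl (log2 change -0.88 ± 0.11 SE, limma adjusted p = 0.000869). Gpr34, a receptor for lysophosphatidylserine, had 2.35, 1.98, 2.15 and 1.96 FPKM in Ep1 1 to 4 and 3.56, 3.79, 5.90 and 4.68 in Ctrl 1 to 4. Ctrl 3 was again the highest library. Gpr34 averaged 2.11 ± 0.178 FPKM in Ep1 and 4.48 ± 1.06 in Ctrl (SD, n = 4 each). The log2 change was -0.80 ± 0.13 (SE, limma adjusted p = 0.00258), and without Ctrl 3 the log2 change was -0.68.

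All 3 receptor genes lie inside a longer gene on the opposite strand, and whether the counting used strand is not given in the sources used here. In GRCm38, P2ry12 is at chromosome 3, 59216272 to 59262871, and P2ry13 at 59207892 to 59210882, both within Med12l. Gpr34 is at chromosome X, 13632089 to 13640858, within Cask. In GENCODE M21 the exons of P2ry12 shared 9 of 2546 bases with exons of Med12l, and those of P2ry13 and Gpr34 shared 0 with their host. Med12l averaged 3.07 ± 0.437 FPKM in Ep1 and 3.40 ± 0.283 in Ctrl (SD, n = 4 each), and Cask averaged 9.14 ± 0.601 FPKM in Ep1 and 9.80 ± 0.346 in Ctrl. Neither passed (limma adjusted p = 0.361 and 0.271). The other receptor genes nested in these hosts, P2ry14, Gpr171 and Gpr82 among them, were below the limit for testing, and these 3 had means of 0.0131 to 0.127 FPKM in Ep1 and 0.0343 to 0.223 in Ctrl.

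The promoter windows of P2ry12 and P2ry13 are shown because these neighbouring genes fell together, and that of Fcrls because it is the member that did not pass. Each runs from 250 bases before to 50 after a RefSeq start site in GRCm38.p6, minus strand, 5′ to 3′, with GAGGAA, a core motif of the myeloid factor PU.1, in capitals wherever it occurs on either strand. The windows are chr3:59262936-59263235 for P2ry12, chr3:59210833-59211132 for P2ry13 and chr3:87263475-87263774 for Fcrls.
P2ry12: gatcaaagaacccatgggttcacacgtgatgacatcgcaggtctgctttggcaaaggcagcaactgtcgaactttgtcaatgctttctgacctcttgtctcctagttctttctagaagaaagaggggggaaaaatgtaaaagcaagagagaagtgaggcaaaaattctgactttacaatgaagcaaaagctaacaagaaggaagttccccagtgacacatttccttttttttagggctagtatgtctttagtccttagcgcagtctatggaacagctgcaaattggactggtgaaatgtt
P2ry13: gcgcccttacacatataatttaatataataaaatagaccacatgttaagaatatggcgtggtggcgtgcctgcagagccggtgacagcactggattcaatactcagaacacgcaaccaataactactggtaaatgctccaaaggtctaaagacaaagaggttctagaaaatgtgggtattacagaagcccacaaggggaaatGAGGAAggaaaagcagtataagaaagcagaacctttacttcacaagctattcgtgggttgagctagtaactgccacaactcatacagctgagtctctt
Fcrls: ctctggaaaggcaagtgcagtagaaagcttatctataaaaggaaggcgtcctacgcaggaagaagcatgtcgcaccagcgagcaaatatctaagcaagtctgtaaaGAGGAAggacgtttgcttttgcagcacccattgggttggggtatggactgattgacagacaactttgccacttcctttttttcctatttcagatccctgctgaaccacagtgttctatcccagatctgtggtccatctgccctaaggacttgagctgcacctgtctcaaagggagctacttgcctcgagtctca
GAGGAA occurred once each in the windows of P2ry13, Fcrls and Siglech, and not in those of P2ry12, Cx3cr1 and Sall1, which has 3 windows. A window was found for 6 of the 9 genes. GAGGAA was present in 28.3% of all 32851 promoter windows. None of the 8 windows of members held the ETS-IRF composite motif, the AP-1 motif TGANTCA or the SMAD motif GTCTAGAC, which 2.72%, 7.81% and 0.213% of all windows held. A match is a description of letters, not of binding, and it was present both in genes that fell and in Fcrls.

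The second group are receptors for signals from neurons and other cells. Cx3cr1 is the receptor for fractalkine, which neurons display and release. It stood at 6.17, 6.68, 6.54 and 5.96 FPKM in Ep1 1 to 4, against 9.13, 8.80, 9.07 and 8.90 in Ctrl 1 to 4. The spread inside each group was small beside the gap between them. Cx3cr1 averaged 6.33 ± 0.329 FPKM in Ep1 and 8.97 ± 0.154 in Ctrl (SD, n = 4 each), a log2 change of -0.44 ± 0.05 (SE, limma adjusted p = 0.000799). Its gene is at chromosome 9, 119901616 to 120069879, and of its 4505 exon bases 78 were shared with another gene, the antisense Gm33858, which averaged 0.0644 FPKM in Ep1 and 0.133 in Ctrl. Cx3cl1, which encodes fractalkine, averaged 192 ± 5.40 FPKM in Ep1 and 183 ± 10.99 in Ctrl and did not pass (limma adjusted p = 0.398).

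Csf1r encodes the receptor tyrosine kinase on which microglia depend for survival. It was the most abundant of the 9 genes, with 12.7, 12.8, 13.4 and 13.3 FPKM in Ep1 1 to 4, against 17.6, 17.6, 18.1 and 18.4 in Ctrl 1 to 4. No library strayed from its group. The Ep1 mean was 72.9% of the Ctrl mean (log2 change -0.43 ± 0.05 SE, limma adjusted p = 0.000568), the smallest fall in percent among the 8. Of its exon bases 15.1% were shared with Hmgxb3 on the opposite strand, which rose (5.88 ± 0.467 FPKM in Ep1 and 4.58 ± 0.326 in Ctrl, limma adjusted p = 0.0149). The 2 ligands of the CSF1 receptor moved in opposite directions. Csf1 averaged 6.43 ± 1.31 FPKM in Ep1 and 3.72 ± 0.418 in Ctrl and rose (SD, n = 4 each, limma adjusted p = 0.00614). Il34, made largely by neurons, averaged 21.6 ± 1.002 FPKM in Ep1 and 28.1 ± 2.70 in Ctrl and fell (limma adjusted p = 0.00698).

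The third group are surface proteins used as microglial markers. Tmem119, a membrane protein that in the brain marks microglia, had 4.34, 5.30, 3.66 and 3.29 FPKM in Ep1 1 to 4, against 9.12, 8.91, 6.86 and 10.1 in Ctrl 1 to 4. Here Ctrl 3 was the lowest control, not the highest as for P2ry12 and Gpr34. The Ep1 mean was 47.3% of the Ctrl mean (log2 change -0.93 ± 0.14 SE, limma adjusted p = 0.00209), and without Ctrl 3 the log2 change was -1.03. Tmem119 is at chromosome 5, 113793729 to 113800516.

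Siglech encodes a sialic acid-binding lectin, in mice also known from plasmacytoid dendritic cells, and is at chromosome 7, 55768178 to 55778925. It had 2.34, 2.33, 2.31 and 2.27 FPKM in Ep1 1 to 4, the tightest spread of the 9 genes in Ep1, against 3.48, 3.63, 4.07 and 4.23 in Ctrl 1 to 4. Its Ep1 mean was 60.1% of the Ctrl mean (log2 change -0.55 ± 0.07 SE, limma adjusted p = 0.00103). Fcrls, an Fc receptor-like scavenger receptor of mouse microglia at chromosome 3, 87250758 to 87263738, was the exception. Its values were 1.87, 1.28, 1.80 and 1.82 FPKM in Ep1 1 to 4, against 1.68, 1.26, 1.25 and 1.52 in Ctrl 1 to 4. The groups overlapped, with Ep1 2 next to the 2 lowest controls. Fcrls averaged 1.69 ± 0.278 FPKM in Ep1 and 1.43 ± 0.211 in Ctrl (SD, n = 4 each), a log2 change of 0.15 ± 0.10 (SE, limma adjusted p = 0.325). With 46 to 72 fragments per library it was also the gene with the fewest counts behind it.

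Sall1 encodes a zinc finger transcription factor that maintains the microglial state and is at chromosome 8, 89027235 to 89044162. It had 3.32, 3.44, 2.63 and 2.84 FPKM in Ep1 1 to 4, against 5.19, 5.15, 4.37 and 4.93 in Ctrl 1 to 4. All Ep1 libraries were below the lowest control, and the 2 at 20 J/cm2 were the lowest of all. The Ep1 mean was 62.2% of the Ctrl mean (log2 change -0.55 ± 0.08 SE, limma adjusted p = 0.00242).

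The order of levels differed between the groups, with P2ry12 lower and Siglech higher in the order in Ep1. In Ep1 Csf1r was followed by Cx3cr1, Tmem119, P2ry12, Sall1, Siglech, Gpr34, P2ry13 and Fcrls. In Ctrl the order was Csf1r, P2ry12, Cx3cr1, Tmem119, Sall1, Gpr34, P2ry13, Siglech and Fcrls. The ranges of Tmem119 and P2ry12, P2ry12 and Sall1, Siglech and Gpr34, Gpr34 and P2ry13, and P2ry13 and Fcrls overlapped in Ep1. In Ctrl those of Csf1r and P2ry12, Cx3cr1 and Tmem119, and each neighbouring pair from Sall1 to Siglech overlapped.

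The measured falls of the 8 genes differed in size. For each of the 36 pairs of members the log2 ratio of their FPKM was compared between Ep1 and Ctrl with a two-sided exact permutation test, a comparison added after the values were seen. In 25 pairs the ratio differed, each with the smallest p that 4 against 4 libraries allow, 0.0286, and a Benjamini-Hochberg p of 0.0411 over the 36. P2ry12 fell more than each of the other 8, by 1.29 log2 units relative to Csf1r, 1.24 relative to Cx3cr1 and 0.53 relative to P2ry13. Csf1r and Cx3cr1 differed in their fall by 0.05 (exact permutation p = 0.457), and Tmem119 and Gpr34 by 0.03 (exact permutation p = 0.971). All 8 genes that fell had a lower ratio to Fcrls in Ep1, and these pairs are among the 25 although Fcrls did not fall. The share of such pairs over all tested genes was not computed, so the count of 25 is a description only. With 1 library left out no pair could pass, since the smallest possible exact permutation p is then 0.0571.

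**Figure D2:**
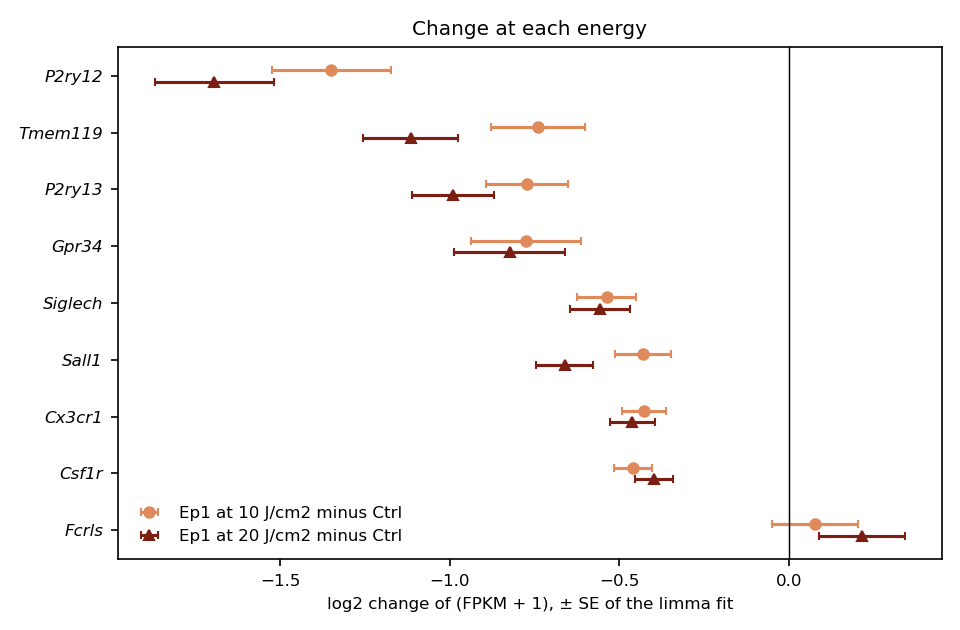
Change of each gene at each energy relative to Ctrl on the log2(FPKM + 1) scale, with the SE of the limma fit (2 Ep1 libraries per energy, 4 Ctrl). Bars of both energies lie left of 0 for the 8 genes that fell, and P2ry12 is farthest left.

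Both energies gave the same 8 calls when each was set against the same 4 Ctrl libraries. At 10 J/cm2, where 3.26% of tested genes fell and 7.29% rose, the log2 changes of the 8 ran from -1.35 for P2ry12 to -0.43 for Cx3cr1, with limma adjusted p between 0.0041 and 0.0238. At 20 J/cm2, where 9.66% fell and 13.9% rose, they ran from -1.69 for P2ry12 to -0.40 for Csf1r, with limma adjusted p between 0.00114 and 0.0108. P2ry12 averaged 13.7 FPKM in Ctrl, 4.70 at 10 J/cm2 and 3.52 at 20 J/cm2, and Tmem119 averaged 8.76, 4.82 and 3.47 FPKM in that order.

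The difference between the energies was tested directly and 0 of the 9 genes passed, as 1 of 14710 genes did in all (limma, 0.0068% higher and 0% lower at 20 J/cm2). With voom on the fragments the count of members was also 0. At an unadjusted p under 0.05 there were 2 members, Tmem119 (log2 difference -0.38 ± 0.16 SE, limma adjusted p = 0.717) and Sall1 (-0.23 ± 0.10 SE, limma adjusted p = 0.709), both lower at 20 J/cm2. For P2ry12 the difference was -0.34 ± 0.20 (SE, limma adjusted p = 0.8294). Each energy had 2 libraries, and the calls at each energy leaned on both of them, at 10 J/cm2 most of all on Ep1 1. Whichever of the 2 was left out, some of the 8 calls at that energy were lost. A single library is then left at that energy, so only log2 changes are given here. At 10 J/cm2 those of the 8 stayed between -1.25 and -0.38 without Ep1 1. At 20 J/cm2 they stayed between -1.890 and -0.406 without Ep1 3, and between -1.497 and -0.389 without Ep1 4. With the replicate number as a block, P2ry12 alone passed at 10 J/cm2 (limma adjusted p = 0.0248).

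Genes shared by microglia and other macrophages moved in both directions. Of 20 such genes 17 were tested, of which 2 fell, 7 rose and 8 did not pass, with a median log2 change of 0.31. Among all tested genes 10.6% fell and 15.5% rose, and the counts of this and the further lists are read beside those shares. Of those that rose, C1qb of the complement C1q complex averaged 27.9 ± 3.38 FPKM in Ep1 and 16.97 ± 2.52 in Ctrl (SD, n = 4 each, limma adjusted p = 0.00368), C1qc 13.004 ± 1.34 in Ep1 and 9.15 ± 0.924 in Ctrl, and the lysosomal glycoprotein gene Cd68 6.76 ± 1.55 in Ep1 and 3.74 ± 0.768 in Ctrl. Cd33, a sialic acid-binding receptor tested only through its Ctrl values, fell to 0.706 ± 0.175 FPKM in Ep1, against 1.34 ± 0.157 in Ctrl, and Unc93b1, which carries Toll-like receptors to endosomes, to 3.43 ± 0.166 in Ep1, against 4.46 ± 0.381 in Ctrl. The 20 genes summed to 134 to 172 FPKM per library in Ep1 and 120 to 128 in Ctrl. The 7 rises became 3 without Ep1 4, 4 without Ctrl 2, Ctrl 4, Ep1 1 or Ep1 3, and 3 without the filter on low values.

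Set against these 17 genes in the same library, the same 8 members were lower in Ep1. The measure was log2(FPKM + 1) of the member minus the mean log2(FPKM + 1) of the 17. For P2ry12 it was -0.34 ± 0.39 in Ep1 and 1.41 ± 0.25 in Ctrl (SD, n = 4 each), a difference of -1.74. For Csf1r it was 1.14 ± 0.10 in Ep1 and 1.79 ± 0.01 in Ctrl, a difference of -0.65, and that was the smallest of the 8. No Ep1 library overlapped Ctrl in any of these 8, each with an exact two-sided permutation p of 0.0286, the smallest possible here, and a Benjamini-Hochberg p of 0.0321 over the 9. Fcrls gave -1.25 ± 0.10 in Ep1 and -1.17 ± 0.12 in Ctrl (SD, n = 4 each, exact permutation p = 0.371). The mean of the 17 reference genes was itself higher in Ep1 by 0.22 log2 units (2.67 ± 0.13 in Ep1 and 2.45 ± 0.03 in Ctrl), which adds that amount to every difference. Its lowest Ep1 value, 2.52, lay above its highest Ctrl value, 2.49. The 8 members already had every Ep1 library below every Ctrl library, so their separation here was fixed in advance. The permutation p-values of the 8 thus add no support to their fall.

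**Figure D3:**
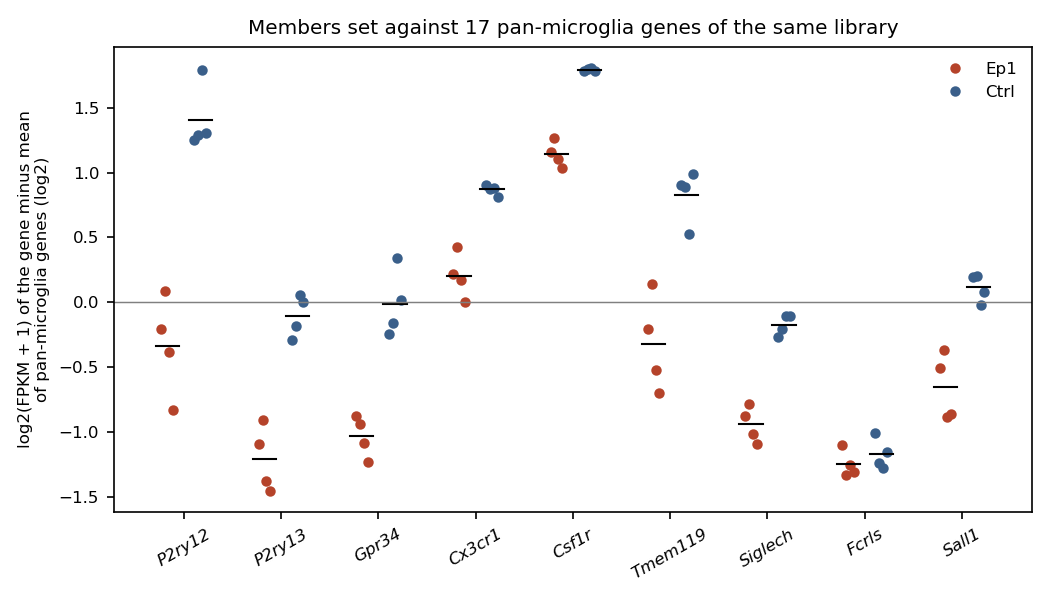
Level of each homeostatic gene relative to 17 pan-microglia genes of the same library, as a difference of log2(FPKM + 1). Points are libraries and lines are group means of 4. The largest gap is that of P2ry12, -0.34 in Ep1 against 1.41 in Ctrl, and Fcrls overlaps.

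Listed genes of the wider resting signature moved in both directions. Which cells gave these changes cannot be told from a bulk sample. Of 25 further homeostatic genes 22 were tested, of which 6 fell, 6 rose and 10 did not pass, with a median log2 change of 0.08. Selplg, the P-selectin ligand, fell to 2.12 ± 0.447 FPKM in Ep1, against 4.96 ± 0.680 in Ctrl (SD, n = 4 each, limma adjusted p = 0.00102). Vsir, an immune checkpoint protein gene, fell to 2.58 ± 0.264 in Ep1, against 4.38 ± 0.325 in Ctrl, and the organic anion transporter gene Slco2b1 to 1.62 ± 0.351 in Ep1, against 2.68 ± 0.221 in Ctrl. Olfml3 and Gpr165, picked after their values were seen, were also among those that fell. Not every gene of this list that rose is named here. Golm1 rose to 8.39 ± 0.543 FPKM in Ep1, against 4.05 ± 0.532 in Ctrl, and the adhesion receptor gene Adgrg1 to 15.99 ± 0.786 in Ep1, against 10.9 ± 0.650 in Ctrl. Gpr84, a receptor known to rise in activated microglia, rose to 1.18 ± 0.290 in Ep1, against 0.159 ± 0.0808 in Ctrl. It was among 2 genes of this list that were tested only through their Ep1 values, which favours rises. The 6 rises became 3 without Ctrl 2.

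Upstream genes also moved in both directions. Among 14 genes of ligands and TGF-beta input 3 fell and 5 rose, with a median log2 change of 0.06. Itgb8, the integrin subunit that releases active TGF-beta, fell to 3.40 ± 0.417 FPKM in Ep1, against 5.40 ± 0.368 in Ctrl (SD, n = 4 each, limma adjusted p = 0.00197). Smad3, which carries the TGF-beta signal to the nucleus, rose to 25.4 ± 2.67 in Ep1, against 15.4 ± 0.532 in Ctrl (limma adjusted p = 0.000703). Tgfbr2 rose and Tgfbr1 fell, by log2 changes of 0.29 and -0.30, and the call of Tgfbr1 (limma adjusted p = 0.0449) held in 8 of 17 alternatives and, of single libraries left out, only without Ep1 1. That of Tgfbr2 was lost with the replicate block (limma adjusted p = 0.0538). These genes are expressed by many brain cells besides microglia.

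Of 12 lineage transcription factors 9 were tested, of which 1 fell and 3 rose, with a median log2 change of 0.19. Cebpa rose to 12.9997 ± 1.88 FPKM in Ep1, against 4.51 ± 1.29 in Ctrl (SD, n = 4 each, limma adjusted p = 0.00136), and Bhlhe41 to 9.77 ± 1.28 in Ep1, against 6.71 ± 0.964 in Ctrl. Mef2c, which neurons also express strongly, fell to 37.9 ± 1.30 in Ep1, against 51.5 ± 10.5 in Ctrl (limma adjusted p = 0.034), a call that held in 11 of 17 alternatives and was lost without any 1 Ep1 library or Ctrl 4.

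**Figure D4:**
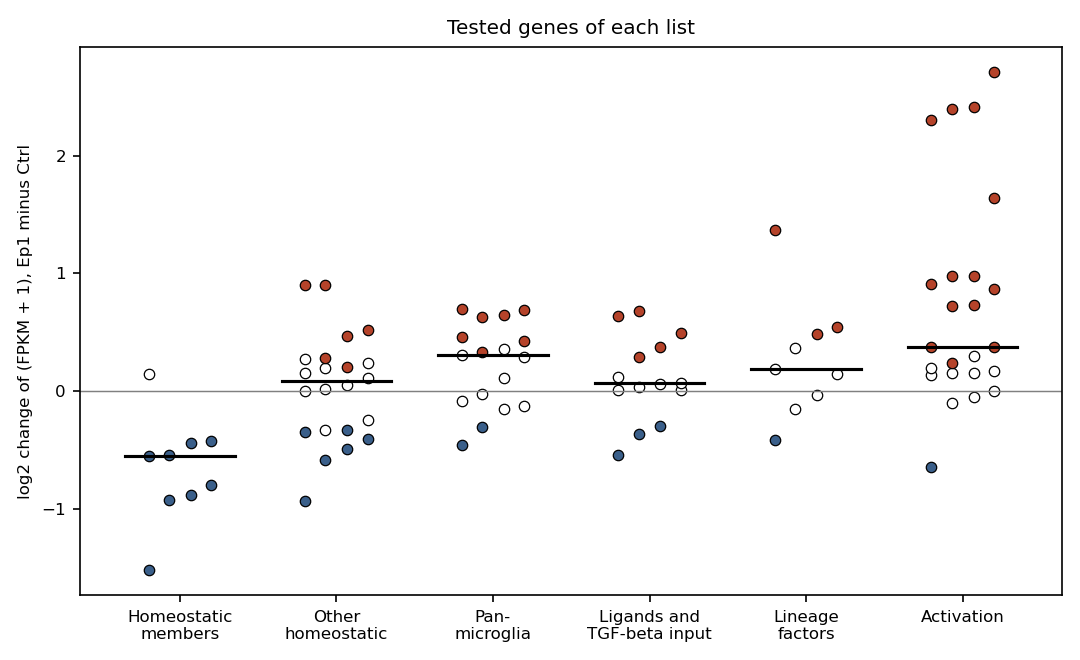
Log2 change of every tested gene in the homeostatic list and 5 lists of related genes, Ep1 minus Ctrl. Filled points passed a limma adjusted p of 0.05 (red higher, blue lower), open points did not, and lines are medians. The homeostatic genes lie at or below -0.43 except Fcrls, and the other lists reach to both sides of 0.

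Genes known to rise in activated microglia rose in 14 of 24 tested cases and fell in 1, of 34 listed, and 9 of the 24 were tested only through their Ep1 values, which favours rises. The chemokine gene Ccl3 averaged 4.45 ± 0.932 FPKM in Ep1 and 0.0932 ± 0.0713 in Ctrl (SD, n = 4 each, limma adjusted p = 4.85e-05). Ccl4 averaged 6.15 ± 2.63 FPKM in Ep1 and 0.0443 ± 0.0512 in Ctrl. Socs3, a cytokine signalling inhibitor that other cells also express, averaged 9.83 ± 3.10 FPKM in Ep1 and 0.996 ± 0.180 in Ctrl. Ccl3, Ccl4 and Socs3 were all among the 9 tested only through their Ep1 values. Lpl, lipoprotein lipase, fell to 2.06 ± 0.794 FPKM in Ep1, against 3.68 ± 0.511 in Ctrl (limma adjusted p = 0.0276), a call that held in 11 of 17 alternatives and was lost without Ctrl 1, Ctrl 2, Ctrl 3, Ep1 3 or Ep1 4.

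Markers of other myeloid cells were scarce. Of 10 markers of border-associated macrophages 2 were tested and 1, the scavenger receptor gene Stab1, rose (2.39 ± 0.344 FPKM in Ep1 and 1.57 ± 0.108 in Ctrl, SD, n = 4 each, limma adjusted p = 0.0123). The 10 summed to 4.22 to 6.14 FPKM in Ep1 and 3.29 to 4.26 in Ctrl. Of 16 markers of blood leukocytes 2 were tested and 1, the neutrophil gene S100a9, rose, with 1.16, 0.671, 2.13 and 8.25 FPKM in Ep1 1 to 4 and at most 0.363 in Ctrl (limma adjusted p = 0.0474). Both tested genes of this list passed the filter only through their Ep1 values, which favours a rise. The call of S100a9 held in 8 of 17 alternatives and, of single libraries left out, only without Ep1 2 or Ep1 4. The 16 summed to 1.39 to 12.7 FPKM in Ep1 and 0.848 to 1.20 in Ctrl, Ly6g was at 0 throughout, and the monocyte receptor gene Ccr2 did not exceed 0.112 FPKM in any library. Their part in the fall of the homeostatic genes was not tested.

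Counts of markers of the other brain cells stand beside the 10.6% that fell and 15.5% that rose among all tested genes, and a single call in a list is near those shares. Of 10 oligodendrocyte markers 3 fell and none rose (median log2 change -0.11), of 8 precursor markers 1 fell and none rose (-0.03), and of 7 tested pericyte markers 3 fell and none rose (-0.18), of which Anpep was tested only through its Ctrl values. Neuron markers fell in 1 and rose in 1 of 10 (-0.01), and astrocyte markers rose in 5 of 10 and none fell (0.25). Endothelial markers fell in 4 and rose in 5 of 10 (0.22), and red cell markers rose in 4 of 5 and none fell (2.07). Of these 5 red cell markers 1 was tested only through its Ep1 values, which favours a rise. The single neuron and precursor calls were each lost without Ep1 1, Ep1 3 or Ep1 4, among others, the precursor calls were 3 without Ctrl 3, and the endothelial rises were 2 without Ep1 3 or Ep1 4 and 3 without Ctrl 1. The red cell markers summed to 88.5 to 295 FPKM in Ep1 and 26.1 to 35.9 in Ctrl, and their part in the fall of the homeostatic genes was not tested. In none of these lists was the median log2 change as low as the -0.55 of the 9 members, and no test of that difference was made. Single genes outside the members could fall as far as P2ry12: the endothelial log2 changes ran from -1.56 for Slco1a4 to 1.46 for Cdh5.

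Genes with profiles close to those of the members were found over the 8 libraries. Likeness was the mean absolute difference between profiles of log2(FPKM + 1), each centred on its own mean, and the 3 nearest tested genes were taken for each of the 8 members that fell. For P2ry12 these were Slc22a8 (0.10 log2 units), Slco1a4 (0.12) and AI593442 (0.15). For Tmem119 they were Selplg (0.09), Adcy8 (0.10) and Slc38a5 (0.11), and for Sall1 Vsir (0.04), Abcb1a (0.04) and Rasl11b (0.05). P2ry13 lay nearest to Trbc2, Prr16 and Lrrc4c, Gpr34 to Omg, Wnt9a and Slc16a7, Cx3cr1 to Parm1, Eogt and Rbm5, Csf1r to 4933439C10Rik, Otx1 and Rgs5, and Siglech to Jcad, B3galt1 and Pknox2. None of these 24 genes was another member, and only Selplg and Vsir were in a list of microglia genes. Slco1a4 (log2 change -1.56) was in the endothelial list and Rgs5 (-0.38) in the pericyte list.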

How the data were processed

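The deposited values are FPKM, 1 column per library, made by the authors. Bowtie 0.12.2 and mm8 appear, with no role given, per the submitters' processing notes. The counting tool, its strand setting and filters are not given in the sources used here. Start and end were the same as in GENCODE M21, a GRCm38 annotation, for 99.4% of the 55141 gene identifiers present in both. Columns were assigned to libraries by letter and number. Fragments were recovered by multiplying FPKM by gene length and dividing by the step of the library, and 100% of values checked came out whole (within 0.01 fragments). The scaling total of each library equalled its median-of-ratios size factor times the geometric mean of the fragment totals, so the values already carry that scaling.

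limma 3.58.1 under R 4.3.3 (trended, robust empirical Bayes) was run on log2(FPKM + 1) for genes whose Ep1 or Ctrl mean reached 1 FPKM, with Benjamini-Hochberg adjustment over all 14710. A fold change on this scale understates the change of low genes. A fit with 3 groups compared the energies. Python 3.11.15 with scipy 1.17.1 gave exact permutation tests. Of 14 further lists up to 3 called genes in each direction were named by smallest adjusted p, fewer for cell types outside the myeloid lineage. Some list genes are not reported here. Members and lists were chosen with earlier results of these data known. Promoters are from RefSeq tables for GRCm38.p6. Same-numbered Ep1 and Ctrl libraries did not deviate together, so the replicate number was not a block. Alternatives changed the pseudocount, filter, scaling, variance model, test, block and each library in turn.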

Additional observations from a re-analysis of the deposited data

Results flagged for a closer look

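Dixon's test at the 95% level was applied to the 4 libraries of each group for 57 named genes, 114 groups in all, of which it would pick about 1 in 20 by chance. It picked 5. P2ry12 was 17.8 FPKM in Ctrl 3, with the other controls at 11.9 to 12.9. Fcrls was 1.28 FPKM in Ep1 2, with the other Ep1 libraries at 1.80 to 1.87. Socs3 was 1.26 FPKM in Ctrl 2, with the others at 0.897 to 0.918. Aldh1l1, an astrocyte marker, was 10.4 FPKM in Ctrl 3, with the others at 11.9 to 12.002. Hbb-bs was 15.4 FPKM in Ctrl 4, with the others at 10.7 to 11.04. No member differed between the energies by a test of the difference.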

How the results depend on the processing

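The 8 members that fell kept their direction and stayed past the threshold in all 17 alternatives to the limma fit of Ep1 against Ctrl (largest adjusted p = 0.0105, Gpr34 without Ep1 4), and Fcrls passed in none of them. With the replicate number as a block, 987 genes were lower and the count of members at 10 J/cm2 was 1. Same-numbered libraries correlated between -0.05 and 0.06 in their deviations, so the numbers were not taken as pairs. When each library was left out in turn, 860 to 1716 genes were lower. At 10 J/cm2 7 members fell without Ctrl 2 or Ctrl 4. At each energy some of the 8 calls were lost when either of its own 2 libraries was left out, most of all at 10 J/cm2 without Ep1 1. The permutation test against pan-microglia genes passed for 0 members with the replicate block and for 0 whenever a library was left out, since the smallest possible p is then 0.125 and 0.0571, and the 8 differences stayed below 0. With other homeostatic genes as the reference list Fcrls reversed to 0.12. The causes were not tested. Fcrls had the fewest fragments of the members, 46 to 72 per library.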
